A study of Mus musculus with 10 samples.

Results

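Transcripts of the tumour suppressor gene *Trp53* and of 9 genes that the p53 protein activates (*Cdkn1a*, *Mdm2*, *Ccng1*, *Bax*, *Bbc3*, *Pmaip1*, *Trp53inp1*, *Sesn1* and *Zmat3*) were followed in O9-1 cells without Kat5 or Ep400. The 10 genes were taken by their symbols from the 43346 genes of the deposited count table, and each had a single entry there. O9-1 cells are a tetraploid line established from cranial neural crest of the mouse. The groups compared were wildtype cells (n = 4 biological replicates), Kat5 ko clones (n = 3) and Ep400 ko clones (n = 3), all grown in the same medium on Matrigel without any treatment. Clones had been made by CRISPR/Cas9 editing and sorting, so that each is a line of its own. All alleles of the Kat5 ko clones and of Ep400 ko clone 1 carried frameshifts, whereas Ep400 ko clone 2 (in 3 alleles) and Ep400 ko clone 3 (in 1 allele) also carried short in-frame deletions in the ATP binding site.

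Kat5 is the histone acetyltransferase of the Tip60/Ep400 chromatin remodeling complex, and Ep400 is its ATPase, which exchanges the histone H2A for the variant H2A.Z. The p53 protein is a transcription factor that is kept low by Mdm2, an E3 ubiquitin ligase that marks it for degradation. After DNA damage and other kinds of stress the protein is stabilised and switches on genes of cell cycle arrest, cell death, DNA repair and metabolism, among them *Mdm2* itself, which closes a feedback loop. Kat5 is known to acetylate p53 and Ep400 is known to restrain transcription of *Cdkn1a*, and loss of neural crest cells through p53 is a feature of several mouse models of craniofacial malformation. RNA levels report on the transcripts only, as p53 is controlled mainly as a protein.

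Libraries of polyadenylated RNA held 30968945 to 48301792 reads counted on genes. *Kat5* RNA in the Kat5 ko clones was at 30.5% to 43.1% of the wildtype mean, and *Ep400* RNA in the Ep400 ko clones at 34.3% to 38.5%. All 12 neural crest and mesenchyme markers of a fixed list had a mean of at least 1 CPM (counts per 1000000 reads) in wildtype and Ep400 ko cells and 11 of them in Kat5 ko cells, while *Pou5f1* and *Nanog* (pluripotent cells), *Krt5* and *Krt14* (epithelium), *Elavl3* and *Rbfox3* (neurons) and *Hbb-bs* (blood) stayed under 0.1 CPM in every library. The other markers of these lists were *Epcam* and *Cdh1*, each under 1 CPM, *Ptprc*, at most 0.441 CPM, *Cd68* with 2.39 to 7.44 CPM, *Sox2* with 17.9 to 165 CPM and *Tubb3* with 1.43 to 22.8 CPM. *Tubb3* was higher in the Ep400 ko clones (5.15 to 22.8 CPM) than in wildtype (2.50 to 4.89 CPM, log2-fold change 1.83, edgeR adjusted p = 0.037), and the part of such cells in the results was not tested. In bulk RNA, fewer cells that express a gene and less RNA per cell cannot be told apart.

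The p53 protein binds DNA as a tetramer at pairs of half-sites of 10 bases. The half-site consensus was searched, on both strands, which are equivalent because the consensus is its own reverse complement, in the RefSeq promoter windows of the GRCm38.p6 build, which reach from 250 bases before to 50 bases after an annotated start site. Windows were at hand for 7 of the 10 genes, and 6 of these 7 (85.7%) held at least 1 half-site, against 2582 of 27018 genes with a window (9.56%). *Bbc3* had 3 windows and no match. *Cdkn1a* and *Sesn1* had 2 windows each, of which 1 held a match, and both matches of *Cdkn1a* lay in the same window. *Pmaip1*, *Trp53inp1* and *Zmat3* were without a window. The matches are shown because they place the sequence that p53 recognises near an annotated start site, not always the first, of these 6 genes. They are given on the strand of each gene from 5′ to 3′, with the half-site in capitals and up to 10 bases on either side.
*Trp53*: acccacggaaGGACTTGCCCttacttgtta
*Cdkn1a*, first match: tcctgggtggGGACTAGCTTtctggccttc
*Cdkn1a*, second match: tggccttcagGAACATGTCTtgacatgttc
*Mdm2*: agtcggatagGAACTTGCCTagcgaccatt
*Ccng1*: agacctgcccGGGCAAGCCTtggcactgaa
*Bax*: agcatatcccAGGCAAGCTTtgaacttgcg
*Sesn1*: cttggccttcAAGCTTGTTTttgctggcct

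The stretches lie at chr11:69580274-69580303 (*Trp53*, plus strand), chr17:29090896-29090925 and chr17:29090918-29090947 (*Cdkn1a*, plus strand), chr10:117710925-117710954 (*Mdm2*, minus strand), chr11:40755452-40755481 (*Ccng1*, minus strand), chr7:45467080-45467109 (*Bax*, minus strand) and chr10:41887256-41887285 (*Sesn1*, plus strand). Their first half-site base stood 51 to 201 bases before the start site of the window, closest for the second match of *Cdkn1a* and farthest for *Bax*. The *Sesn1* stretch lies inside the annotated gene (chr10:41809935-41908424), so that its start site is an internal one. Among 57 other p53 targets with a window, 12 (21.1%) held a half-site. A match is a sequence in a window and no measurement of binding.

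Per kilobase of exon, the order of levels in wildtype cells began with *Ccng1*, a cyclin-like regulator that p53 induces, at 138 ± 11.2 CPM per kilobase (SD, n = 4). It was followed by *Cdkn1a* at 97.0 ± 9.12 and *Bax* at 86.3 ± 14.4, which overlapped in range, and by *Trp53* at 67.9 ± 10.1, whose range overlapped that of *Bax*. *Mdm2* followed at 40.5 ± 2.79 without overlap to either side. *Zmat3* (16.9 ± 3.42), *Bbc3* (9.10 ± 3.75), *Trp53inp1* (7.57 ± 2.18) and *Sesn1* (6.75 ± 1.52) formed a chain of overlapping ranges, and *Pmaip1* was lowest at 2.28 ± 0.842 CPM per kilobase. The arrest gene *Cdkn1a*, the feedback gene *Mdm2* and the apoptosis gene *Bax* were thus well expressed in untreated wildtype cells. *Bbc3* and *Pmaip1*, which start apoptosis, stood at the lower end together with *Trp53inp1* and *Sesn1*.

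**Figure D1:**
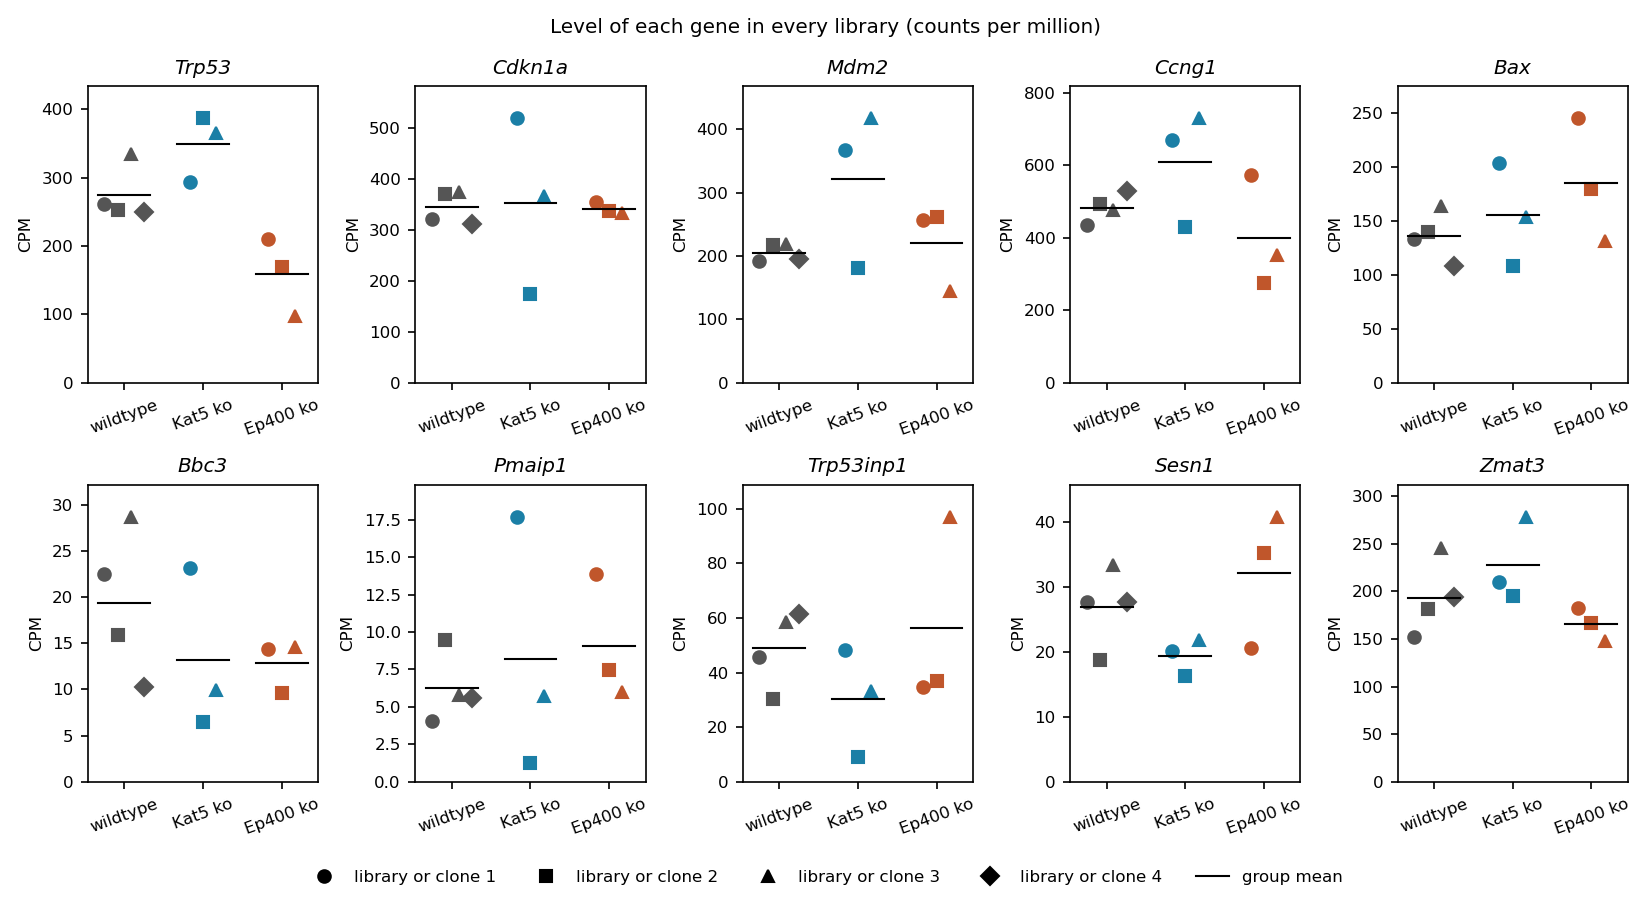
Level of each of the 10 genes in every library, in CPM on axes that start at 0, with 4 wildtype libraries, 3 Kat5 ko clones and 3 Ep400 ko clones. Symbols give the number of the library or clone and lines the group means. *Trp53* was lower in all Ep400 ko clones (98.3 to 210) than in all wildtype libraries (249 to 335), and Kat5 ko clone 2 (squares) was the lowest Kat5 ko clone for 9 of the 10 genes.

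To see whether loss of either subunit came with a p53 response, each knockout was compared with wildtype over all genes. None of the 10 genes passed an adjusted p of 0.05 in Kat5 ko against wildtype, in Ep400 ko against wildtype or in Ep400 ko against Kat5 ko (quasi-likelihood test of edgeR, adjusted over all genes tested by Benjamini-Hochberg). Over all genes tested, 67 of 13434 (0.499%), 1917 of 13836 (13.9%) and 994 of 13587 (7.32%) passed, in the same order. At an unadjusted edgeR p of 0.05, 1 of the 10 genes (*Mdm2*), 1 (*Trp53*) and 2 (*Trp53* and *Sesn1*) passed. Over all genes tested, 2993 of 13434, 4466 of 13836 and 4404 of 13587 did, which are larger shares than among the 10 genes. With DESeq2, *Trp53* passed the adjusted threshold in Ep400 ko against wildtype and in Ep400 ko against Kat5 ko, and with limma-voom none of the 10 did in any comparison. The median log2-fold change of the 10 genes was 0.18 in the Kat5 ko and 0.05 in the Ep400 ko clones, against 3.2e-05 and 0.04 over all genes tested. Its sign in the Kat5 ko comparison rested on single clones, as it was −0.24 without Kat5 ko clone 1 and 0.33 without Kat5 ko clone 2.

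**Figure D2:**
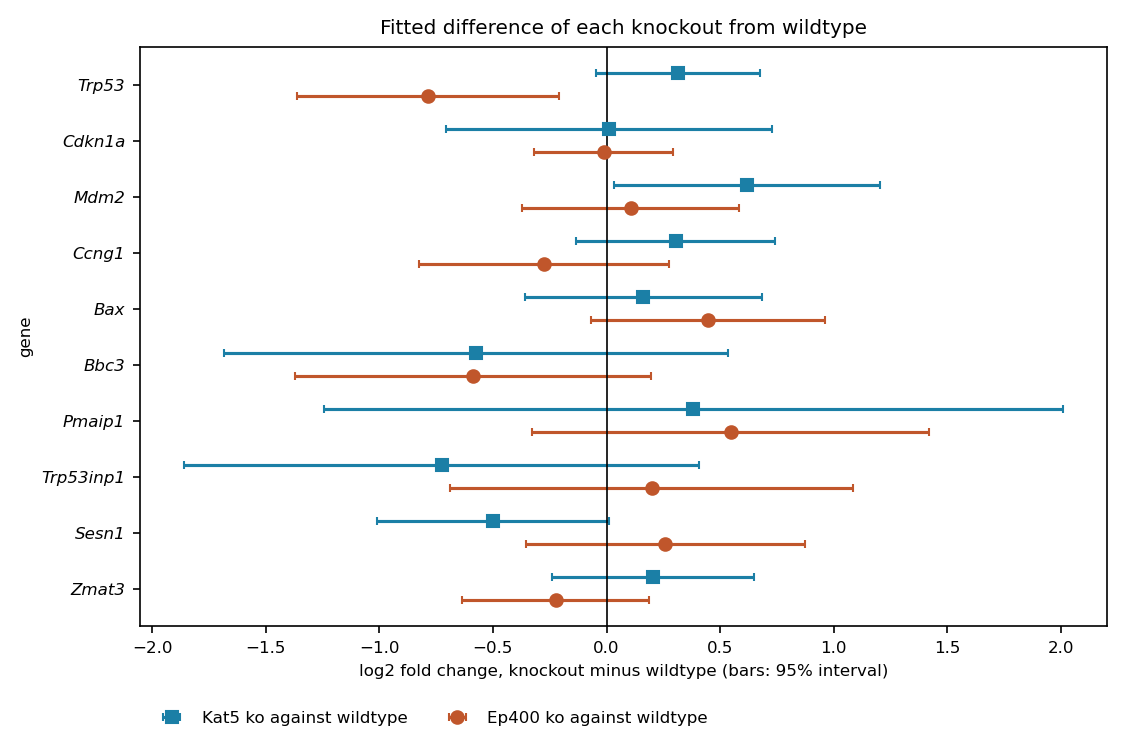
Fitted log2-fold change of each gene with its 95% confidence interval, for Kat5 ko (squares) and Ep400 ko (circles) against wildtype, from edgeR. Intervals left out 0 for *Mdm2* in the Kat5 ko and for *Trp53* in the Ep400 ko comparison, and neither gene passed after adjustment over all genes. Both comparisons use the same 4 wildtype libraries.

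*Trp53* itself (ENSMUSG00000059552, chr11:69580359-69591873, plus strand) had 262, 252, 335 and 249 CPM in the wildtype libraries, 294, 388 and 365 CPM in Kat5 ko clones 1 to 3, and 210, 170 and 98.3 CPM in Ep400 ko clones 1 to 3. All 3 Ep400 ko clones lay below all wildtype libraries and all Kat5 ko clones, whereas Kat5 ko clone 1 lay within the wildtype range and the other two above it. *Trp53* was the only one of the 10 genes whose Ep400 ko clones did not overlap wildtype, and over all genes tested 14.1% lay wholly below and 16.1% wholly above. Group means were 275 ± 40.8 CPM in wildtype (SD, n = 4), 349 ± 48.9 in Kat5 ko (SD, n = 3) and 159 ± 56.3 in Ep400 ko cells (SD, n = 3). The log2-fold change was −0.79 in the Ep400 ko clones (standard error 0.25, 95% interval −1.36 to −0.21, edgeR adjusted p = 0.072) and 0.31 in the Kat5 ko clones (standard error 0.16, 95% interval −0.05 to 0.68, edgeR adjusted p = 0.28).

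Between the knockouts, *Trp53* differed by −1.15 on the log2 scale (standard error 0.30, 95% interval −1.85 to −0.45, edgeR adjusted p = 0.057), with Ep400 ko lower. The call of this difference depended on the tool. With DESeq2 it had an adjusted p of 0.011, with a single edgeR fit of all libraries 0.014 and without a filter on low counts 0.036, while limma-voom gave 0.052. For Ep400 ko against wildtype, DESeq2 gave an adjusted p of 0.028 and edgeR without Ep400 ko clone 1 one of 0.037.

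The level of *Trp53* was set beside that of its chromosome. The median log2 difference of chromosome 11 genes from the wildtype mean was −0.22, −0.23 and −0.32 in Ep400 ko clones 1 to 3 and −0.11, 0.21 and 0.24 in Kat5 ko clones 1 to 3, compared with −0.04 to 0.07 in the wildtype libraries. The difference of *Trp53* in the same clones was −0.38, −0.68 and −1.47, and 0.11, 0.51 and 0.42, which has the sign of the chromosome median in all clones but Kat5 ko clone 1. With the chromosome medians taken out as an offset, the log2-fold change of *Trp53* in the Ep400 ko clones was −0.54 (edgeR adjusted p = 0.14). Chromosome copy number was not measured, and its part in the level of *Trp53* was not tested.

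Targets of cell cycle arrest and of the feedback loop came next. *Cdkn1a* (ENSMUSG00000023067, chromosome 17), which encodes the cyclin-dependent kinase inhibitor p21, had 321, 371, 374 and 312 CPM in wildtype, 520, 175 and 366 CPM in Kat5 ko clones 1 to 3, and 354, 337 and 334 CPM in Ep400 ko clones 1 to 3. The Ep400 ko clones lay within the wildtype range and closer to each other than the wildtype libraries, whereas Kat5 ko clone 1 was above that range and clone 2 below it. The log2-fold change was 0.01 in the Kat5 ko clones (95% interval −0.71 to 0.73, edgeR adjusted p = 0.99) and −0.01 in the Ep400 ko clones (95% interval −0.32 to 0.29, edgeR adjusted p = 0.96), and these near-zero signs turned with the scaling. In linear terms the intervals reached from 0.612 to 1.66 times the wildtype level for Kat5 ko and from 0.801 to 1.23 times for Ep400 ko. The Ep400 ko clones were therefore bounded much more narrowly for *Cdkn1a*.

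*Mdm2* (ENSMUSG00000020184, chromosome 10), the ligase that degrades p53, had 192, 217, 218 and 195 CPM in wildtype, 367, 181 and 418 CPM in Kat5 ko clones 1 to 3, and 257, 262 and 145 CPM in Ep400 ko clones 1 to 3. Kat5 ko clones 1 and 3 and Ep400 ko clones 1 and 2 exceeded every wildtype library, while the remaining clone of either knockout was under all of them. In the Kat5 ko clones the log2-fold change was 0.62 (standard error 0.26, edgeR adjusted p = 0.20), and 0.91 with an adjusted p of 0.054 without clone 2. In the Ep400 ko clones it was 0.11 (edgeR adjusted p = 0.76).

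*Ccng1* (ENSMUSG00000020326, chromosome 11) had 434, 492, 478 and 529 CPM in wildtype, 669, 429 and 731 CPM in Kat5 ko clones 1 to 3, and 572, 274 and 352 CPM in Ep400 ko clones 1 to 3. It shared with *Mdm2* the high values of Kat5 ko clones 1 and 3. The log2-fold changes were 0.30 (Kat5 ko, edgeR adjusted p = 0.38) and −0.28 (Ep400 ko, edgeR adjusted p = 0.46), and *Ccng1* lies on chromosome 11 like *Trp53*.

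The apoptosis targets were next in order. *Bax* (ENSMUSG00000003873, chromosome 7), which permeabilises the outer mitochondrial membrane, had 133, 139, 164 and 108 CPM in wildtype, 203, 108 and 154 CPM in Kat5 ko clones 1 to 3, and 245, 179 and 131 CPM in Ep400 ko clones 1 to 3. Ep400 ko clones 1 and 2 and Kat5 ko clone 1 were above the wildtype range. The log2-fold change was 0.44 in the Ep400 ko clones (95% interval −0.07 to 0.96, edgeR adjusted p = 0.21) and 0.16 in the Kat5 ko clones (edgeR adjusted p = 0.71). *Bax* overlaps the annotated gene *Gm45808* on the same strand, so that reads of the shared exons could be assigned to either.

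*Bbc3* (ENSMUSG00000002083, chromosome 7), which encodes the BH3-only protein Puma, had 22.4, 15.9, 28.7 and 10.3 CPM in wildtype, 23.2, 6.46 and 9.92 CPM in Kat5 ko clones 1 to 3, and 14.4, 9.66 and 14.5 CPM in Ep400 ko clones 1 to 3. Its wildtype libraries were 2.79-fold apart, and only Kat5 ko clones 2 and 3 and Ep400 ko clone 2 were under all of them. *Pmaip1* (ENSMUSG00000024521, chromosome 18), which encodes the BH3-only protein Noxa, had 4.06, 9.48, 5.82 and 5.57 CPM in wildtype, 17.7, 1.25 and 5.73 CPM in Kat5 ko clones 1 to 3, and 13.9, 7.44 and 5.97 CPM in Ep400 ko clones 1 to 3. Between Kat5 ko clones 1 and 2, *Pmaip1* differed 14.1-fold, the widest gap between clones of a knockout among the 10 genes, and it rested on 642 and 38 reads. Log2-fold changes were −0.57 and −0.59 for *Bbc3* (edgeR adjusted p = 0.52 and 0.27, Kat5 ko and Ep400 ko) and 0.38 and 0.55 for *Pmaip1* (edgeR adjusted p = 0.79 and 0.35).

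*Trp53inp1* (ENSMUSG00000028211, chromosome 4), a nuclear cofactor of p53 that also acts in autophagy, had 45.7, 30.5, 58.6 and 61.3 CPM in wildtype, 48.3, 9.03 and 33.1 CPM in Kat5 ko clones 1 to 3, and 34.7, 37.0 and 97.1 CPM in Ep400 ko clones 1 to 3. Kat5 ko clone 2 was the lowest and Ep400 ko clone 3 the highest of all 10 libraries. The log2-fold changes of −0.73 (Kat5 ko, 95% interval −1.86 to 0.41) and 0.20 (Ep400 ko, 95% interval −0.69 to 1.09) had edgeR adjusted p values of 0.42 and 0.76, and the latter was −0.46 without Ep400 ko clone 3.

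*Sesn1* (ENSMUSG00000038332, chromosome 10), a stress protein that restrains mTORC1, had 27.7, 18.8, 33.4 and 27.7 CPM in wildtype, 20.1, 16.3 and 21.8 CPM in Kat5 ko clones 1 to 3, and 20.6, 35.2 and 40.8 CPM in Ep400 ko clones 1 to 3. Ep400 ko clones 2 and 3 exceeded all other libraries, and all Kat5 ko clones were under the wildtype mean of 26.9 ± 6.06 CPM (SD, n = 4). The log2-fold changes were −0.50 (Kat5 ko, edgeR adjusted p = 0.23) and 0.26 (Ep400 ko, edgeR adjusted p = 0.54), and the 2 knockouts differed by 0.71 (Ep400 ko minus Kat5 ko, 95% interval 0.02 to 1.40, edgeR adjusted p = 0.15).

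*Zmat3* (ENSMUSG00000027663, chromosome 3), an RNA-binding protein, had 152, 182, 246 and 194 CPM in wildtype, 210, 195 and 278 CPM in Kat5 ko clones 1 to 3, and 183, 167 and 148 CPM in Ep400 ko clones 1 to 3. Every Kat5 ko clone was above every Ep400 ko clone, but both groups overlapped wildtype. The difference between the knockouts was −0.48 (Ep400 ko minus Kat5 ko, 95% interval −0.97 to 0.01, edgeR adjusted p = 0.16). *Trp53* and *Zmat3* were the 2 of 10 genes whose Ep400 ko clones all lay below all Kat5 ko clones, a pattern that 18.0% of all genes tested had. None of the 10 genes lay wholly above or wholly below wildtype in the Kat5 ko clones, where 9.67% and 10.2% of all genes tested did.

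The clones of each knockout differed among themselves. Kat5 ko clone 2 had 8 of the 10 genes below the lowest wildtype library (*Cdkn1a*, *Mdm2*, *Ccng1*, *Bax*, *Bbc3*, *Pmaip1*, *Trp53inp1* and *Sesn1*), compared with 34.1% of all 14079 genes with a level, while *Trp53* was above the highest. Its median difference from the wildtype mean over the 10 genes was −0.50 on the log2 scale. Kat5 ko clone 1 had none of the 10 below and 5 above (*Cdkn1a*, *Mdm2*, *Ccng1*, *Bax* and *Pmaip1*), where 27.8% of all genes were above, and a median of 0.42. Kat5 ko clone 3 had 4 above (*Trp53*, *Mdm2*, *Ccng1* and *Zmat3*) and only *Bbc3* below, and a median of 0.14. Of all genes, 33.2% were above and 31.9% below in clone 3. A difference between single clones has no replicate, and clone 2 was singled out after its values had been seen.

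Among the 67 other p53 targets with a level, Kat5 ko clone 2 was again the low clone. In clone 2, 36 of them (53.7%) were below the wildtype range and 18 above, with a median difference of −0.32, while in clones 1 and 3 more were above (29 and 26) than below (16 and 18), with medians of 0.19 and 0.20. Of all genes, 27.8%, 33.6% and 33.2% were above and 27.7%, 34.1% and 31.9% below in Kat5 ko clones 1 to 3. *Kat5* RNA was 22.9, 16.4 and 23.2 CPM in Kat5 ko clones 1 to 3. For the Ep400 ko clones, the numbers of the 10 genes above and below the wildtype range were 4 and 1 in clone 1, 3 and 3 in clone 2, and 2 and 4 in clone 3, and the medians −0.01, −0.11 and −0.17. Of all genes, 31.9%, 33.2% and 37.4% were above and 29.5%, 31.7% and 34.3% below in the same clones.

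**Figure D3:**
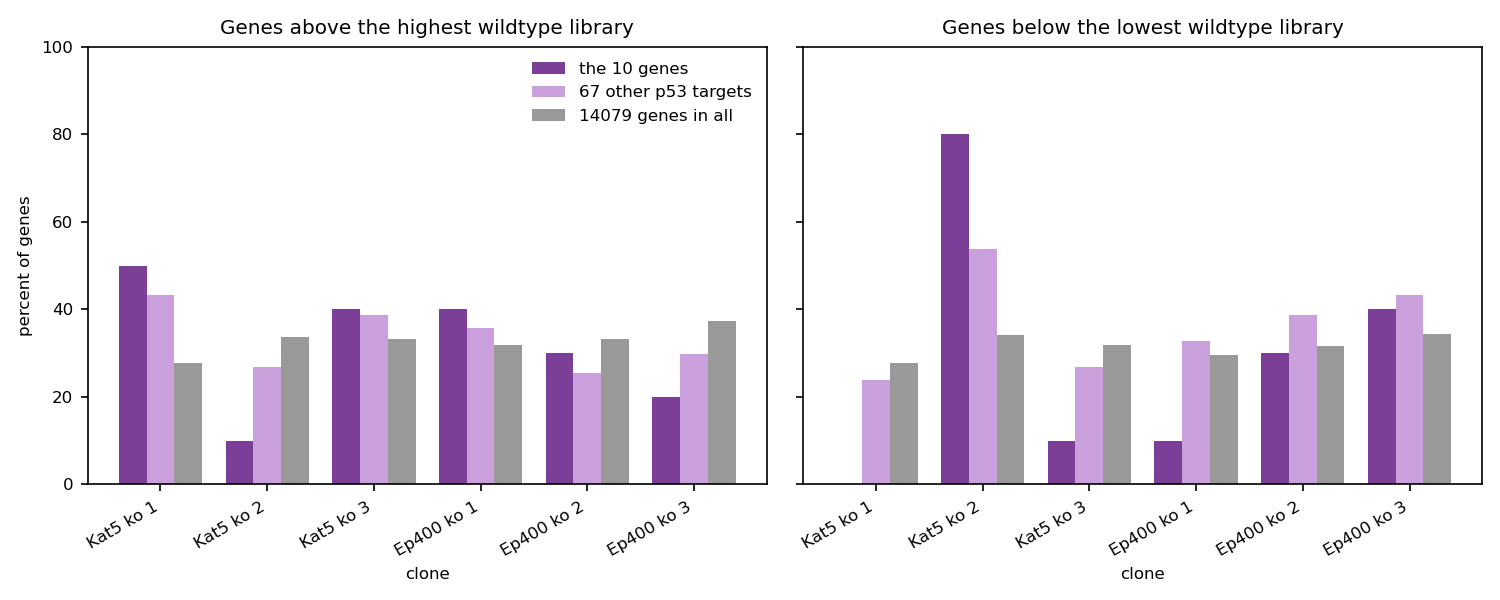
Percent of the 10 genes, of 67 other p53 targets and of all 14079 genes with a level that were above the highest (left) or below the lowest (right) wildtype library in each knockout clone. Of the 10 genes, 80.0% were below the wildtype range in Kat5 ko clone 2 and none in Kat5 ko clone 1.

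**Figure D4:**
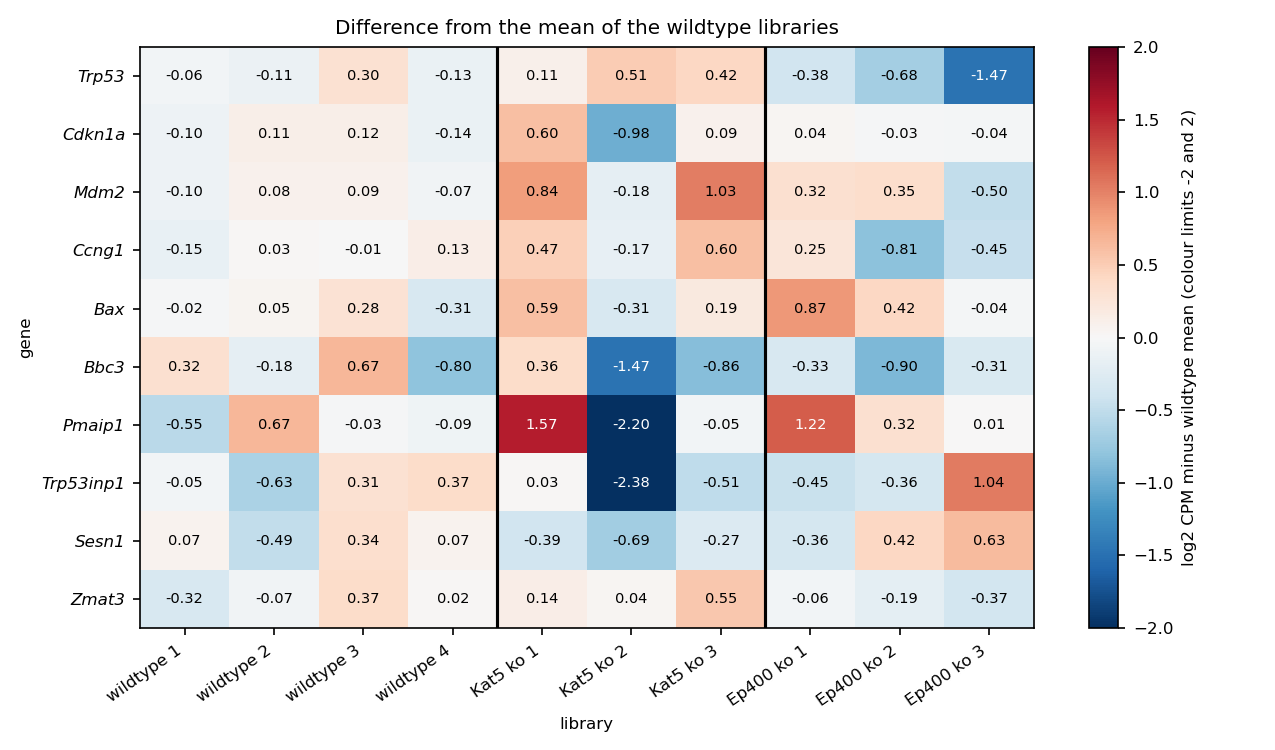
Log2 CPM of each gene in each library minus the mean of the 4 wildtype libraries, printed in each cell, with blue for lower and red for higher values. The column of Kat5 ko clone 2 holds the lowest values for *Cdkn1a* (−0.98), *Pmaip1* (−2.20) and *Trp53inp1* (−2.38), and *Trp53* is below the wildtype mean in all 3 Ep400 ko clones.

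Put as spread within a group, the SD of log2 CPM had a median over the 10 genes of 0.27 in wildtype, 0.55 in Kat5 ko and 0.50 in Ep400 ko cells. Over all 14079 genes the medians were 0.24, 0.36 and 0.36. In the Kat5 ko clones the SD was widest for *Pmaip1* (1.89), *Trp53inp1* (1.27) and *Bbc3* (0.93). *Cdkn1a* had an SD of 0.80 in the Kat5 ko clones and, with 0.05, the smallest of the 10 genes in the Ep400 ko clones. The genes with the most similar pattern to *Cdkn1a* over the 10 libraries, by root mean square difference of log2 CPM centred on its mean, were *Tor4a* (0.15), *Chst14* (0.15), *Aga* (0.16), *Commd3* (0.18) and *Ikbip* (0.20), compared with a variation of *Cdkn1a* about its own mean of 0.37. Among the 9 other genes *Bax* came nearest (0.31, place 308 of the genes compared) and *Trp53* was the farthest (0.72, place 9555).

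A wider list of 68 p53 targets from general knowledge was counted in the same fits. In Kat5 ko against wildtype, 1 of 66 tested (1.52%) passed and was lower, beside 0.499% of all genes tested. Against wildtype, 5 were higher and 6 lower in the Ep400 ko clones among 67 tested, and these 11 (16.4%) stand beside the 13.9% of all genes that passed. The median log2-fold changes were 0.03 and −0.10.

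In the Kat5 ko clones the called gene was *Lpin1*, which encodes the phosphatidate phosphatase lipin 1. It had 42.2 to 86.2 CPM in wildtype and 24.3, 15.8 and 23.7 CPM in Kat5 ko clones 1 to 3, without overlap. Its log2-fold change was −1.71 (standard error 0.27, edgeR adjusted p = 0.047). In 8 of 15 alternative settings this call was lost, with adjusted p values between 1.3e-06 and 0.19 over all 15.

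In the Ep400 ko clones, genes of growth and metabolism made up 4 of the 6 lower ones. That was 1 of 9 tested targets of cell cycle arrest and growth (11.1%) and 3 of 16 of metabolism, redox and autophagy (18.8%). Both shares stand beside the 13.9% of all genes tested. *Plk2*, a polo-like kinase, had 184, 264, 132 and 181 CPM in wildtype and 93.2, 51.6 and 42.3 CPM in Ep400 ko clones 1 to 3, which is −1.61 as log2-fold change (standard error 0.32, edgeR adjusted p = 0.016). *Ddit4*, an inhibitor of mTORC1 that also answers to hypoxia and amino acid shortage, stood at −1.99 as log2-fold change (standard error 0.39, edgeR adjusted p = 0.014), and it kept its call in all 15 alternative settings. Of the mitochondrial enzymes, *Fdxr*, ferredoxin reductase, had a log2-fold change of −1.16 (edgeR adjusted p = 0.0074) and *Prodh*, proline dehydrogenase, one of −1.80 (edgeR adjusted p = 0.0068). For *Prodh*, the Ep400 ko clones were within 4.59 to 4.83 CPM, while wildtype libraries had 12.1 to 23.9 CPM. The apoptosome gene *Apaf1* was lower by a log2-fold change of −0.69 (edgeR adjusted p = 0.014), with 43.1, 36.8 and 36.0 CPM in Ep400 ko clones 1 to 3 and 58.2 to 69.0 CPM in wildtype. *Sytl1*, a synaptotagmin-like protein, was near the detection limit, with 0.652 to 1.63 CPM in wildtype and 0.219 to 0.448 CPM in the Ep400 ko clones (log2-fold change −1.75, edgeR adjusted p = 0.0497).

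Among the 5 higher ones, *Phlda3*, an inhibitor of Akt signalling, had 83.9 to 129 CPM in wildtype and 238, 170 and 169 CPM in Ep400 ko clones 1 to 3 (log2-fold change 0.75, edgeR adjusted p = 0.039). *Steap3*, a ferrireductase, had 72.8 to 104 CPM in wildtype and 129, 179 and 145 CPM in the Ep400 ko clones (log2-fold change 0.75, edgeR adjusted p = 0.024). *Pltp*, the phospholipid transfer protein, had a log2-fold change of 1.71 (edgeR adjusted p = 0.024) and *Trim21*, an intracellular antibody receptor, one of 1.69 (edgeR adjusted p = 0.049), each highest in Ep400 ko clone 3 with 109 and 16.9 CPM. *Casp1*, the caspase of inflammasomes, was counted with 0, 2, 1 and 1 reads in the wildtype libraries, 5, 0 and 3 reads in the Kat5 ko clones and 29, 25 and 67 reads in the Ep400 ko clones, so that no fold is given. Over the 15 alternative settings, the call was kept in 14 by *Plk2*, *Casp1* and *Fdxr*, in 13 by *Prodh*, in 12 by *Apaf1*, in 10 by *Pltp* and *Steap3*, in 7 by *Phlda3*, in 5 by *Trim21* and in 4 by *Sytl1*.

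**Figure D5:**
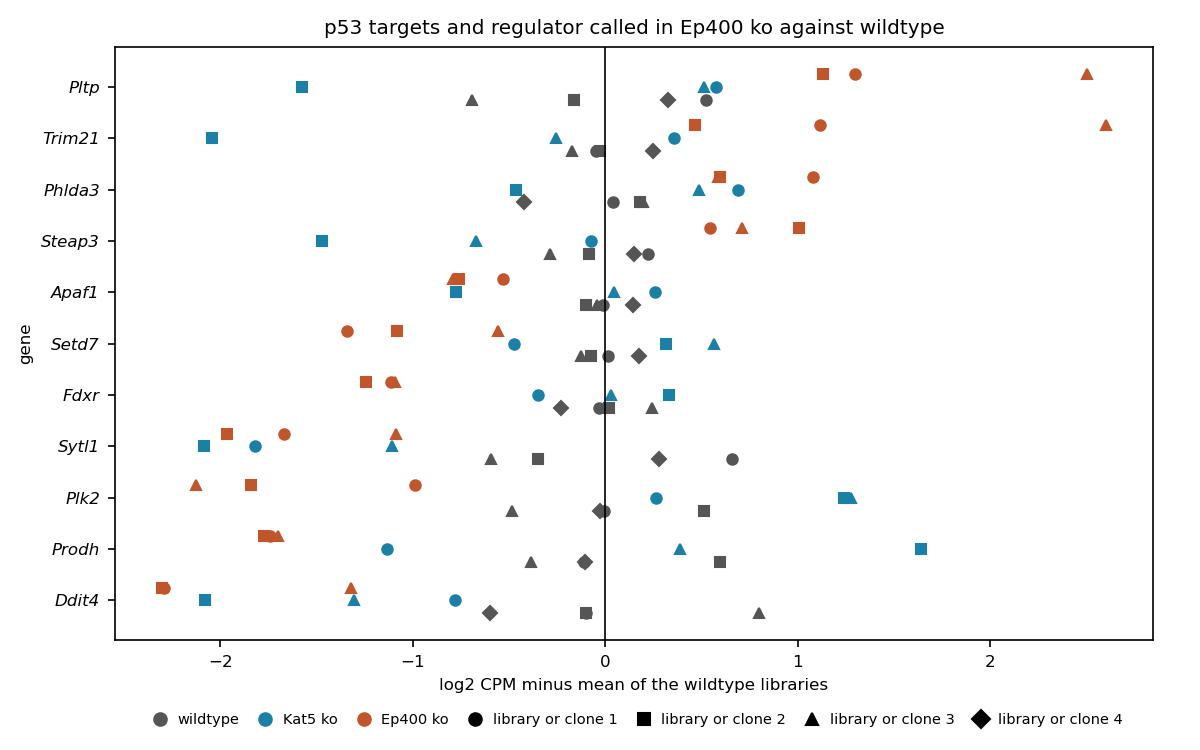
The p53 targets and the p53 regulator *Setd7* that passed in Ep400 ko against wildtype, as log2 CPM of each library minus the wildtype mean, with colours for the groups and symbols for the number of the library or clone. *Casp1* is left out, as its wildtype libraries held 0 to 2 reads. Ep400 ko clones are all on the side of the call for each gene, and Kat5 ko clone 2 lies left of the other Kat5 ko clones for *Pltp*, *Trim21*, *Phlda3*, *Steap3* and *Apaf1*, among others, and right of them for *Prodh* and *Fdxr*.

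In the direct comparison of the knockouts, 4 of 66 other targets (6.06%) passed, next to 7.32% of all genes. *Plk2* was lower in Ep400 ko than in Kat5 ko clones by 2.58 on the log2 scale (edgeR adjusted p = 0.027), with 222, 436 and 448 CPM in Kat5 ko clones 1 to 3. *Fdxr* was lower by a log2-fold change of −1.20 (edgeR adjusted p = 0.045). *Bhlhe40*, a circadian transcription factor, was higher in Ep400 ko clones, with 48.2, 81.9 and 66.0 CPM against 23.5, 23.8 and 28.5 CPM in the Kat5 ko clones (log2-fold change 1.35, edgeR adjusted p = 0.031). The remaining one was *Casp1*. The 3 most abundant of the 68 other targets in wildtype were *Ak1*, *Plk2* and *Ephx1*. *Ak1* (adenylate kinase) had 202 to 241 CPM in wildtype, 307, 108 and 261 CPM in Kat5 ko clones 1 to 3 and 143 to 181 CPM in the Ep400 ko clones, again with Kat5 ko clone 2 lowest. *Ephx1* (epoxide hydrolase) had 147 to 278 CPM in wildtype, 171, 73.4 and 190 CPM in Kat5 ko clones 1 to 3 and 225 to 428 CPM in the Ep400 ko clones.

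Regulators of p53 were examined as well. Of 8 that restrain p53, 1 (12.5%, next to 13.9% of all genes tested) was called in Ep400 ko against wildtype. This was *Setd7*, a lysine methyltransferase that acts on p53 among other proteins (log2-fold change −0.96, standard error 0.20, edgeR adjusted p = 0.017), with 148 to 182 CPM in wildtype and 63.5, 76.0 and 109 CPM in Ep400 ko clones 1 to 3. Methylation by Setd7 has also been described as stabilising p53, so that its place in this list is a matter of convention. Of 16 tested regulators that activate or modify p53, none was called by edgeR or limma-voom in the Ep400 ko clones. By edgeR, 3 of the 16 reached an unadjusted p of 0.05, next to 4466 of 13836 genes tested. DESeq2 tested 17 and called 2, and the share of all genes that DESeq2 called is not given here, so this count cannot be set beside it. In the Kat5 ko clones *Kat5*, the edited gene there, was the only one called (6.25%, next to 0.499% of all genes tested). *Mdm4*, the partner of Mdm2, had a log2-fold change of −0.15 in the Kat5 ko (edgeR adjusted p = 0.71) and of 0.07 in the Ep400 ko clones (edgeR adjusted p = 0.88). The p53 relatives *Trp63* and *Trp73* and the *Cdkn2a* locus, which encodes p19Arf, were below 0.6 CPM in every library. They were not tested in the main edgeR fits or by limma-voom. DESeq2 did test them and called neither *Trp63* nor *Trp73*, with 1 of these 2 at an unadjusted p of 0.05 in Ep400 ko against wildtype.

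Genes that p53 lowers indirectly, through p21 and the DREAM repressor complex, form a list of 20 cell cycle genes. In the Kat5 ko clones 19 of the 20 had a positive log2-fold change (median 0.28), next to 6717 of 13434 genes tested. At an unadjusted edgeR p of 0.05 there were 6 of the 20, next to 2993 of all genes tested. None was called with edgeR, 2 were called by DESeq2 and 0 by limma-voom. The share of all genes called by DESeq2 or limma-voom is not given here. All Kat5 ko clones were above all wildtype libraries for 7 of the 20, next to 9.67% of all genes. In the Ep400 ko clones 19 of the 20 had a negative log2-fold change (median −0.49), next to 6492 of 13836 genes tested. At an unadjusted edgeR p of 0.05 there were 9 of the 20, next to 4466 of all genes tested. DESeq2 called 3 and limma-voom 1. With edgeR, 1 gene was called (5.00%, next to 13.9% of all genes tested). That gene was *Top2a*, topoisomerase IIα, with 519 to 607 CPM in wildtype and 406, 329 and 260 CPM in Ep400 ko clones 1 to 3 (log2-fold change −0.75, edgeR adjusted p = 0.029). The list was lowest in Ep400 ko clone 3, where all 20 genes were below the wildtype range, compared with 34.3% of all genes, and the median difference was −1.07. This library also had the highest share of mitochondrial reads (3.24%, the others 0.893% to 2.43%) and of reads on its 20 most abundant genes (10.8%, the lowest library 7.15%), and the part of RNA quality in these levels was not tested. In Ep400 ko clones 1 and 2 the medians were −0.11 and −0.44. Of the 20 genes, 6 and 15 were below, compared with 29.5% and 31.7% of all genes. Clone 1 was thus close to the share of all genes.

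The largest differences in this list in the Kat5 ko clones were those of *Mybl2* (log2-fold change 1.10, edgeR adjusted p = 0.075), *Kif23* (0.58, adjusted p = 0.076) and *Birc5* (0.48, adjusted p = 0.13). In the Ep400 ko clones they were those of *Mybl2* (−1.06, adjusted p = 0.088), *Top2a* and *Ube2c* (−0.69, adjusted p = 0.10). *Mybl2*, the B-Myb factor of late cell cycle genes, had 25.7 to 39.7 CPM in wildtype, 44.7, 89.1 and 72.0 CPM in Kat5 ko clones 1 to 3 and 23.0, 15.1 and 6.82 CPM in Ep400 ko clones 1 to 3, and differed between the knockouts by −2.21 (Ep400 ko minus Kat5 ko, edgeR adjusted p = 0.040). *Kif23*, a kinesin of cytokinesis, differed by −1.22 (edgeR adjusted p = 0.032). *Cdkn1a* RNA had 334 to 354 CPM in the Ep400 ko clones and 175 to 520 CPM in the Kat5 ko clones. The p21 protein was not measured, and its part in the levels of this list was not tested. In cultures of either knockout the paper reported a lower percentage of mitotic cells than in wildtype, while this list was mostly higher in Kat5 ko and lower in Ep400 ko cells. The share of cycling cells was not part of the count table, and its part in the levels of this list was not tested.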

How the data were processed

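RNA from 10 libraries was examined. According to the methods and the submitters' processing notes, the authors sequenced stranded poly-A libraries, and the notes name bcl2fastq 2.20, STAR 2.7.3, DESeq2 1.36.0, R 4.2.1 and mm10. The counting program and annotation are not given in the sources used here. The deposited raw values are whole read counts per gene. The deposited normalized values are a signal, namely those counts divided by 1 factor per library, and were used only to check that all 10 genes are listed there.

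Groups were taken from the labels. Genes were kept by filterByExpr, scaled by TMM and tested with edgeR 4.0.16 (quasi-likelihood, R 4.3.3) for each pair of groups, with Benjamini-Hochberg adjustment over all genes tested and a call at an adjusted p of at most 0.05. CPM use 1 TMM scaling of all libraries, and log2 CPM a prior count of 2. Precision is limited by the spread between libraries more than by depth, since the 10 genes had 38 to 33166 reads per library.

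Named were all 10 genes in every library, the called genes of the other lists (up to 12 of the largest change per comparison), the 3 most abundant other targets, the 3 largest changes of the list repressed through p21 and DREAM, and the 5 genes nearest to *Cdkn1a*. *Bhlhe40* and the genes called between the knockouts were named after their values were seen. The 10 genes and all lists (150 symbols, all matched, 4 by gene ID) were chosen with earlier results of these data known. Gene positions are those of GENCODE M21 on GRCm38, promoters those of RefSeq. Alternatives were DESeq2 1.42.0, limma-voom 3.58.1, other scalings, no filter, 1 fit of all libraries, a replicate block, chromosome offsets and each library left out. Same-numbered libraries deviated together with correlations of −0.096 to 0.22, so the numbers do not pair them. Counts of replicates differed beyond sampling (chi-square 28.1 to 258 per gene). The procedure was tested on simulated data.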

Additional observations from a re-analysis of the deposited data

Results flagged for a closer look

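*Trp53* in the wildtype libraries had 1 library, wildtype 3, far above the other 3, with a gap of 0.853 of the group's range (335 CPM next to 249 to 262). The same library stood apart for *Ephx1*, with a gap of 0.976 of the range (278 CPM next to 147 to 150). With 32 genes examined in this way and about 5% expected by chance, 2 such gaps are close to what chance gives. Without wildtype 3, the log2-fold change of *Trp53* was −0.69 in the Ep400 ko and 0.43 in the Kat5 ko clones.

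Some genes differed between the knockouts in their distance from the same wildtype libraries. By the test of the difference itself (Ep400 ko minus Kat5 ko, edgeR, log2 scale), *Plk2* differed by −2.58, *Fdxr* by −1.20, *Mybl2* by −2.21, *Kif23* by −1.22, *Bhlhe40* by 1.35 and *Kat5*, the edited gene of one knockout, by 1.74. The value for *Casp1* was 3.81, which depends on the prior count, as the Kat5 ko clones held 0 to 5 reads. For *Bhlhe40*, all Kat5 ko clones were below and all Ep400 ko clones above the wildtype mean. In addition, all clones of one knockout were above and all clones of the other below the wildtype mean for *Trp53* (−1.15, adjusted p = 0.057), *Zmat3* (−0.48, adjusted p = 0.16), *Steap3* (1.37, adjusted p = 0.055) and *Birc5* (−1.11, adjusted p = 0.059), and the difference did not pass the adjusted threshold for any of these 4 genes.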

How the results depend on the processing

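Direction and side of the threshold were followed through 15 alternatives for each comparison with wildtype and 14 for the comparison of the knockouts. No member of the 10 genes was called in Kat5 ko against wildtype under any of them, nor in either comparison with the replicate block, which gave 0. The study's limits on fold and count (1 or more on the log2 scale in either direction, with a mean count over 100) were laid on the edgeR calls. There they can only remove calls, and none of the 10 genes was called to begin with, so they give no further check. Against wildtype, *Trp53* alone was called in the Ep400 ko clones with DESeq2 (1 gene) and without Ep400 ko clone 1, so that leaving out 1 library gave 0 to 1. Between the knockouts it was called with DESeq2, without a filter and in the single fit of all libraries (1 gene each), and without Kat5 ko clone 1 (0 to 1 over libraries left out).

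Calls among the other targets moved more. The number of all genes called under each alternative is not given here, so these moves cannot be read as particular to p53 targets. In Kat5 ko against wildtype the 1 call became 12 with DESeq2, 3 without a filter, 0 in the single fit, 0 with the replicate block and 0 with the chromosome offset, and 0 to 13 with 1 library left out: 13 without Kat5 ko clone 1, and 0 without wildtype 1, 3 or 4 or Kat5 ko clone 2 or 3. For Ep400 ko the 11 calls became 18 with DESeq2, 4 in the single fit (*Plk2*, *Casp1*, *Ddit4* and *Fdxr*) and 1 with the replicate block (*Ddit4*), and 6 to 13 with 1 library left out, with 7, 6 and 6 without wildtype 1, 2 and 4. The median of the 10 genes in the Ep400 ko clones was 0.05, and 0.15 with the chromosome offset. With 1 library left out it ran from −0.075 (without Ep400 ko clone 3) to 0.072. The median in the Kat5 ko clones was −0.06 with the replicate block and 0.00 with limma-voom.

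Signs near 0 turned. For Kat5 ko against wildtype, *Cdkn1a* was −0.12 with limma-voom, −0.025 with library size alone and −0.15 with the replicate block, and with 1 library left out it ran from −0.38 to 0.34. *Pmaip1* was −0.21 with limma-voom and −0.20 with the block, and ran from −0.86 to 0.89, and *Bax* ran from −0.087 to 0.37, each lowest without Kat5 ko clone 1. For Ep400 ko against wildtype, *Cdkn1a* was 0.018 with library size alone and 0.16 with the chromosome offset and ran from −0.059 to 0.022, *Mdm2* from −0.051 to 0.33 (without clone 2 and 3) and *Trp53inp1* from −0.46 to 0.45 (without clone 3 and 1). Between the knockouts, *Cdkn1a* was 0.073 with limma-voom, 0.043 with library size alone, 0.061 with the block and 0.012 with the chromosome offset, and ran from −0.41 to 0.32. *Bbc3* was 0.13, 0.058, 0.13 and 0.032 in the same order and ran from −0.40 to 0.63, *Bax* from −0.027 to 0.48 and *Pmaip1* from −0.39 to 1.356. The cause of these shifts was not tested. *Pmaip1*, with 38 reads in 1 clone, is the gene whose depth was lowest.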
